A study of Mus musculus with 94 samples.

Results

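De novo lipogenesis is followed here through 10 enzymes and carriers that lead from citrate export to the desaturated fatty acid: Slc25a1, Acly, Acss2, Me1, Acaca, Acacb, Fasn, Elovl6, Scd1 and Scd2. The genes were named as the steps of the pathway, with earlier results of these data known. All 10 were found among the 20411 gene symbols of each table and all passed the filter on low counts, in which 14323 genes remained in epididymal fat and 13899 in inguinal fat. The study sequenced poly(A) RNA from whole epididymal white adipose tissue (eWAT, a visceral depot) and inguinal white adipose tissue (iWAT, a subcutaneous depot) of 47 male C57BL/6JBomTac mice, which gave 94 libraries. From 10 weeks of age the diet mice ate a high-fat diet (D12492) for 18 weeks and were then either sampled as obese mice (n = 5) or returned to a low-fat diet (D12450J) for 2, 6 or 12 weeks (n = 6 each). Each diet group had a lean group of the same age that stayed on the low-fat diet throughout (n = 6 each), at 28, 30, 34 and 40 weeks of age. Food was freely available, and the sources used here do not state the feeding state at tissue collection. Mice were housed 3 to a cage, and which mice shared a cage is not given. The tests treat the mice of a group as independent, so p-values leave out any spread shared within a cage and may be too small.

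De novo lipogenesis turns carbon from sugar into fatty acids: citrate leaves the mitochondrion, is split to acetyl-CoA in the cytosol, and is built into palmitate with reducing power from NADPH. Elongation and desaturation then yield the longer and monounsaturated fatty acids that are stored in triglyceride. In white fat the transcripts of these enzymes are known to depend on carbohydrate supply and insulin, through the transcription factors ChREBP (Mlxipl) and SREBP-1c (Srebf1), and dietary fat is known to lower them.

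The bases before the start of 3 members are shown because the pathway is known for sharing promoter elements, namely the CCAAT box bound by NF-Y, the E box CACGTG, and the core ATCACCC of the sterol element of the Fasn promoter. The windows hold the 250 bases before the RefSeq start on GRCm38.p6, read 5′ to 3′ on the strand of the gene. They lie at chr11:120824548-120824797 (minus strand) for Fasn, chr16:17928220-17928469 (minus strand) for Slc25a1 and chr11:100528001-100528250 (minus strand) for Acly. Capitals mark a match to the CCAAT box, to the E box or to the sterol core, each searched as these letters on both strands, so that a CCAAT match on the other strand reads ATTGG.
Fasn: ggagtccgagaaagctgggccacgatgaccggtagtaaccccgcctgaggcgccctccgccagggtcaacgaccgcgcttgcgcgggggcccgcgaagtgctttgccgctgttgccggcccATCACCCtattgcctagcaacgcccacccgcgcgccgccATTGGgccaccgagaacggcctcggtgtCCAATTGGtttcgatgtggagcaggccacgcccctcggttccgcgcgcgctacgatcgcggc
Slc25a1: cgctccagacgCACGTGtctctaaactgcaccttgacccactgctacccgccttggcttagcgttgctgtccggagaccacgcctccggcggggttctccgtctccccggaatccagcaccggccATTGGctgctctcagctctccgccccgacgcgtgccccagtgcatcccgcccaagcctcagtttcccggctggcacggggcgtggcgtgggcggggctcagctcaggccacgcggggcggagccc
Acly: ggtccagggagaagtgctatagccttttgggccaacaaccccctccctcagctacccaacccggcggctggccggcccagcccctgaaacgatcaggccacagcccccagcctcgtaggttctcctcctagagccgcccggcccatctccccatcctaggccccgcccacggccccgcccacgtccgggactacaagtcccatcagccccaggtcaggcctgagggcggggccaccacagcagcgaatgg
In Fasn, 3 CCAAT matches were found, of which 2 overlap each other on opposite strands, and the sterol core began 129 bases before the start. Slc25a1 held 1 CCAAT match and 1 E box, and the Acly window held none of the 3 motifs. RefSeq promoters were matched for 8 of the 10 members (9 windows, as Me1 has 2), and not for Scd1 and Scd2. A CCAAT match stood in 5 of these 8 members, an E box in 1 and the sterol core in 1. For 5 of the 8 members the RefSeq start differs from the start of the gene model given with the results, among them 3 of those with a CCAAT match. These are Acss2 (95 bases inside the model), Me1 (the window with the match, 8676 bases inside) and Acacb (18983 bases inside). Among all 32851 promoter windows of the same length, 33.8% held CCAAT, 6.02% the E box and 2.28% the sterol core. These shares are per window, whereas the counts above are per member, and Me1 was counted through 1 of its 2 windows. These are matches of letters in 1 window per start and are given as a description.

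Values are counts per 1000000 (CPM) over the effective library size, and a difference is the log2 of diet mice over lean mice of the same age from edgeR's quasi-likelihood test, with its standard error and a Benjamini-Hochberg adjusted p over all genes tested. A gene was called at an adjusted p under 0.05. Library totals ran from 1.32 to 25.9 M counts (M for 1000000) in eWAT (median 8.53) and from 6.27 to 34.3 M in iWAT (median 9.65). The lowest total belonged to replicate 2 of the 2-week regression group in eWAT. The adipocyte genes Adipoq and Plin1 were present in every library, Adipoq at 1879 to 6182 CPM in eWAT and 1561 to 4176 CPM in iWAT. Some libraries held RNA of neighbouring tissue. Summed over 8 marker genes each, skeletal muscle reached 43063 CPM in an iWAT library of the lean group aged 34 weeks. Epididymis and vas deferens reached 5785 CPM in an eWAT library of the same lean group, and B and T cells 1203 CPM in a 12-week regression iWAT library. With these signals as terms, the members called lower numbered 9, 10, 0 and 0 at the 4 times in eWAT and 10, 10, 0 and 0 in iWAT. These were the same counts as without the terms, and the share of all genes called with them is not given here. The median log2 difference of all genes lay between -0.03 and 0.04 in these 8 comparisons.

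In lean mice the pathway took a large share of the RNA of both depots, most of it through Scd1. The 10 members took 17.0% ± 2.87 (SD, n = 6) of all counts in lean eWAT at 28 weeks and 19.0% ± 2.15 (SD, n = 6) in lean iWAT, and Scd1 alone reached 17.6% in 1 lean eWAT library. Per kilobase of merged exon, over the 24 lean libraries of each depot, the level of Scd1, the stearoyl-CoA desaturase that predominates in adipocytes, was 27328 ± 6938 CPM per kb (SD) in eWAT and 28209 ± 6895 in iWAT. Fasn, the synthase that assembles palmitate, followed at 1901 ± 604 and 2623 ± 711 CPM per kb. In eWAT the order then ran through Scd2 (447.8), Slc25a1, Acly (399.1), Me1 (394.7), Elovl6 (158), Acaca (112), Acss2 (62.6) and Acacb (33.7 CPM per kb). Of the neighbours in that order, those whose mean ± SD ranges did not overlap were Scd1 and Fasn, Fasn and Scd2, and Me1 and Elovl6. In iWAT the order after Fasn was Slc25a1 (716), Me1 (584), Acly (567.9), Elovl6 (480.8), Scd2 (374), Acaca (153), Acacb (73.5) and Acss2 (72.2 CPM per kb), and the neighbours that did not overlap were Scd1 and Fasn, Fasn and Slc25a1, Scd2 and Acaca, and Acaca and Acacb. Merged exons count every annotated exon, and with the length of the longest transcript in their place Acss2 stood at 176 CPM per kb in eWAT and Acaca at 202.

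Between the depots of lean mice, 8 members were higher in iWAT than in eWAT of the same mouse, against 31.2% of all genes tested. The log2 difference, iWAT minus eWAT with the mouse as a block, was 1.74 ± 0.11 (SE; adjusted p = 3.36e-18) for Elovl6, 1.19 ± 0.08 (adjusted p = 3.91e-16) for Acacb and 0.91 ± 0.08 (adjusted p = 1.86e-12) for Slc25a1. Me1 (0.64), Acly (0.63), Fasn (0.56), Acaca (0.54) and Acss2 (0.32) were higher by less. Scd2 was lower in iWAT by -0.18 ± 0.07 (adjusted p = 0.0392), a direction called for 28.1% of genes, and Scd1 was not called (0.12, adjusted p = 0.252). From 28 to 40 weeks of age no member was called in the lean mice of either depot, against 0.105% of genes in eWAT and 0.496% in iWAT, so the lean reference of the 4 comparisons did not pass a test of change for any of the 10.

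**Figure D1:**
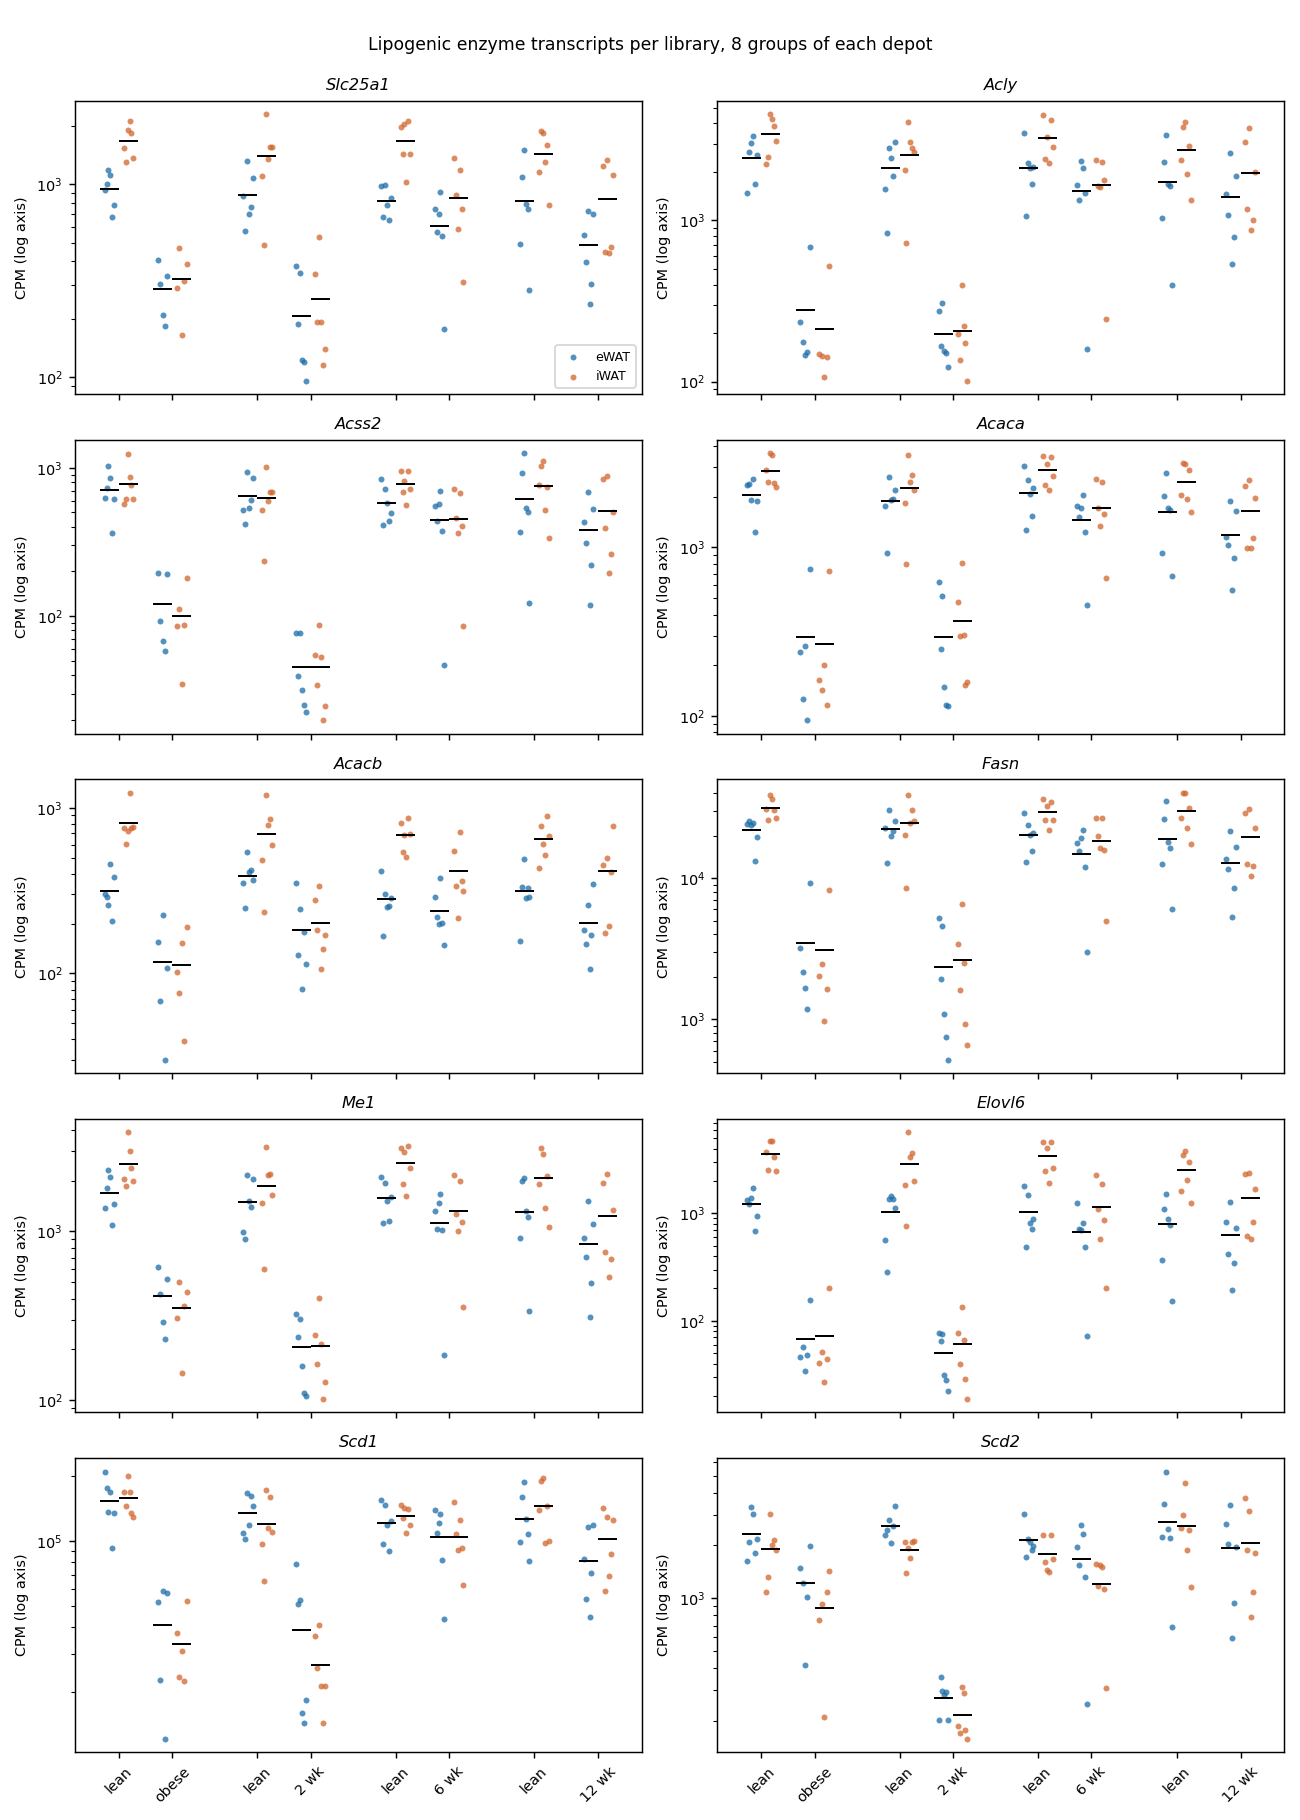
Level of each of the 10 members in all 94 libraries, 1 panel per gene, in CPM on a log axis, by group and depot; each point is a library and the black bar is the group mean. The obese groups and the 2-week regression groups sit lowest in both depots, and the 6-week and 12-week regression groups overlap their lean groups.

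At the end of 18 weeks of high-fat feeding the transcripts of the pathway were low in both depots. In eWAT 9 of the 10 members fell (9.31% of genes were called lower) and in iWAT all 10 fell (15.5% called lower), with a median log2 difference of -2.28 and -2.91. Elovl6 fell furthest of the 10 in both depots, and Scd2 had the smallest difference. The members' share of all counts was 4.88% ± 2.46 (SD, n = 5) in obese eWAT and 4.25% ± 1.69 in obese iWAT. All 8 macrophage markers were higher in the same obese eWAT and iWAT groups, and the share of all genes called higher is not given here. With their signal in each library as a term in the fit, 3 members were called in eWAT, with a median of -1.25 (0.712% of genes called lower), and 9 in iWAT, with a median of -2.30 (6.06%). In bulk tissue, fewer cells of a type and less RNA of a gene per cell cannot be told apart. The obese mice were still on the high-fat diet when sampled, so obesity and the diet itself cannot be told apart either.

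The transcripts for citrate export and for the supply of cytosolic acetyl-CoA fell together. Slc25a1 (chr16:17925223-17928219, minus strand, mm10), the citrate carrier of the inner mitochondrial membrane whose promoter is shown above, stood at 407.3, 304, 212, 185 and 335 CPM in the 5 obese eWAT libraries and at 675 (lowest), 969 (median) and 1183 CPM (highest) in the 6 lean ones. Every obese library lay below every lean library, and the log2 difference was -1.72 ± 0.37 (adjusted p = 8.64e-04). In iWAT Slc25a1 was at 292, 466.1, 165, 317 and 386 CPM in obese mice and at 1300, 1699 and 2134 CPM in lean mice, again without overlap, with a difference of -2.37 ± 0.39 (adjusted p = 1.95e-05). Acly (chr11:100476353-100528000, minus strand) splits the exported citrate to acetyl-CoA and oxaloacetate. Obese eWAT libraries held 234, 176.5, 147, 152 and 685 CPM of Acly, against 1481, 2606 and 3338 CPM in lean mice. The first 4 obese mice were close together, replicate 5 was well above them, and all 5 were below the lean range. Acly fell by 3.14 ± 0.52 on the log2 scale (adjusted p = 5.08e-05). In iWAT its values were 148, 145, 108, 142 and 520 CPM against 2226, 3494 and 4586 CPM, and Acly fell by 4.01 ± 0.51 (16.1-fold, adjusted p = 4.18e-07).

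Acss2 (chr2:155517948-155585724, plus strand), which makes acetyl-CoA from acetate, ranged from 58.4 to 195 CPM in obese eWAT and from 362 to 1034 CPM in lean eWAT. It fell by 2.53 ± 0.50 in eWAT and by 2.97 ± 0.46 in iWAT (adjusted p = 3.74e-04 and 6.24e-06). The Acss2 gene model overlaps 5 others, among them the antisense RNA Acss2os, and whether the counting used strand is not given, so reads of the pair cannot be told apart. Me1 (chr9:86581371-86695953, minus strand), the cytosolic malic enzyme that yields NADPH, ranged from 229 to 617 CPM in obese eWAT and from 1094 to 2323 CPM in lean eWAT. Its log2 differences were -2.02 ± 0.42 in eWAT and -2.84 ± 0.43 in iWAT (adjusted p = 6.31e-04 and 5.39e-06). Neither Acss2 nor Me1 overlapped between obese and lean mice in either depot.

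The transcripts of both acetyl-CoA carboxylases fell in both depots. Acaca (chr11:84129672-84401651, plus strand) encodes the cytosolic enzyme whose malonyl-CoA feeds the synthase. Its obese eWAT values were 240, 126, 259, 94.5 and 745 CPM, against 1240, 2126 and 2540 CPM in lean mice, and its obese iWAT values were 165, 144, 202, 116 and 721 CPM against 2281, 2640 and 3608 CPM. Replicate 5 was the highest of the obese mice in both depots, and the groups did not overlap. The log2 difference of Acaca was -2.81 ± 0.47 in eWAT (adjusted p = 6.75e-05) and -3.41 ± 0.45 in iWAT (10.6-fold, adjusted p = 6.15e-07). Acacb (chr5:114146535-114250761, plus strand) encodes the form attached to mitochondria, whose malonyl-CoA restrains fatty acid oxidation. In obese eWAT it stood at 154, 68.5, 225, 30.2 and 107 CPM, and in lean eWAT at 206, 294 and 460.8 CPM, so that obese replicate 3 lay within the lean range. In obese iWAT Acacb stood at 102, 76.6, 152, 38.9 and 191 CPM against 606, 757 and 1233 CPM in lean mice, with no overlap. Acacb fell by 1.44 ± 0.36 in eWAT (adjusted p = 0.00347) and by 2.84 ± 0.39 in iWAT (adjusted p = 1.34e-06).

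Fasn (chr11:120805846-120824547, minus strand), whose promoter is shown above, stood at 3197, 2150, 1669, 1185 and 9237 CPM in obese eWAT and at 13255, 24032 and 25465 CPM in lean eWAT. In obese iWAT it stood at 2026, 2473, 977, 1650 and 8224 CPM, and in lean iWAT at 25669, 30566 and 38840 CPM. The same mouse, obese replicate 5, was the highest of the obese group in both depots and still below every lean mouse. The log2 difference of Fasn was -2.64 ± 0.53 in eWAT (adjusted p = 4.38e-04) and -3.35 ± 0.51 in iWAT (adjusted p = 5.26e-06), and without obese replicate 5 it was -3.39 and -4.13.

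Elovl6 (chr3:129532355-129638495, plus strand) lengthens palmitate to stearate, the step between the synthase and the desaturases. Obese eWAT libraries held 46.1, 57.4, 33.8, 47.6 and 155 CPM, against 682, 1277 and 1712 CPM in lean eWAT. Obese iWAT libraries held 40.2, 51.6, 26.6, 44.1 and 202 CPM, against 2487, 3544 and 4680 CPM in lean iWAT. The obese means were 68.0 ± 49.3 CPM (SD, n = 5) in eWAT and 72.9 ± 72.7 CPM in iWAT, beside lean means of 1213 ± 359 and 3574 ± 979 CPM (n = 6), and no obese library reached the lean range. Elovl6 fell by 4.16 ± 0.60 in eWAT (17.8-fold, adjusted p = 8.32e-06) and fell by 5.62 ± 0.65 in iWAT (49.1-fold, adjusted p = 1.03e-07), and without obese replicate 5 the differences were -4.69 and -6.45.

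Of the 2 desaturases, which place the double bond of oleate, Scd1 fell in both depots and Scd2 was called in iWAT. Scd1 (chr19:44394455-44407879, minus strand) stood at 52372, 22869, 59043, 12244 and 57397 CPM in obese eWAT and at 92665, 151809 and 209123 CPM in lean eWAT. In iWAT it stood at 37664, 23539, 31104, 22461 and 52702 CPM in obese mice and at 129522, 156936 and 199003 CPM in lean mice. Neither depot showed overlap, and Scd1 fell by 1.90 ± 0.39 in eWAT (adjusted p = 5.56e-04) and by 2.23 ± 0.29 in iWAT (adjusted p = 5.83e-07). Scd2 (chr19:44293674-44306864, plus strand), the form with the wider tissue range, stood at 1487, 1223, 417.7, 1018 and 1979 CPM in obese eWAT and at 1625, 2134 and 3316 CPM in lean eWAT, where obese replicate 5 lay within the lean range. Its eWAT difference of -0.93 ± 0.40 was not called (adjusted p = 0.0885), and without obese replicate 5 it was called at -1.15 (adjusted p = 0.0467). In iWAT Scd2 stood at 754, 933, 211, 1092 and 1432 CPM in obese mice and at 1088, 1953 and 3025 CPM in lean mice, with 2 obese mice inside the lean range. It fell by 1.11 ± 0.37 there (adjusted p = 0.0207), a call that was lost without lean replicate 3, obese replicate 1 or obese replicate 3, when the difference was -0.93, -1.06 and -0.86. Scd1 and Scd2 are close paralogs that share 145 of the 4888 stretches of 50 bases in Scd1 (2.97%). Some of their reads may therefore have been split between them. Scd1 stood far above Scd2, at means of 152456 and 2338 CPM in the same lean eWAT libraries. A part that is small for Scd1 may be large for Scd2, and its effect on the Scd2 values was not tested.

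Counted over members, every obese library lay below every lean library for 8 members in eWAT (3.48% of genes), the exceptions being Acacb and Scd2, and for 9 in iWAT (10.2% of genes), the exception being Scd2. The authors' deposited DESeq2 table listed 9 and 10 members as lower in obese eWAT and iWAT and none as higher. The share of all genes it lists as lower is not given here.

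After 2 weeks back on the low-fat diet the transcripts of the pathway had not returned. All 10 members were lower than in lean mice of the same age in both depots (17.1% of genes were called lower in eWAT and 9.37% in iWAT). The median log2 difference was -3.05 in eWAT and -3.14 in iWAT, and the members took 4.56% ± 2.84 of eWAT counts and 3.47% ± 1.35 of iWAT counts (SD, n = 6), against 15.6% ± 2.39 and 15.5% ± 4.14 in lean mice. With the macrophage signal as a term, 3 members were called in eWAT (0.852% of genes called lower), the median was -1.52 and Acacb turned to 0.24, while in iWAT all 10 were called (7.15%). Without that term Elovl6 had the largest difference of the 10, and Acss2 and Acly followed.

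Elovl6 stood at 22.3 (lowest), 47.8 (median) and 77.5 CPM (highest) in eWAT after 2 weeks, against 287, 1238 and 1441 CPM in lean mice, and fell by 4.37 ± 0.57 (20.7-fold, adjusted p = 9.90e-07). In iWAT it stood at 18.7, 53.1 and 134 CPM against 764, 2655 and 5699 CPM, and fell by 5.57 ± 0.60 (47.4-fold, adjusted p = 9.94e-08). No 2-week library reached the lean range in either depot. Fasn stood at 518, 1515 and 5177 CPM in eWAT against 12795, 22088 and 30158 CPM, and at 658, 2054 and 6558 CPM in iWAT against 8439, 24797 and 38530 CPM. It fell by 3.23 in both depots (SE 0.51 and 0.47, adjusted p = 1.07e-05 and 7.17e-06), without overlap.

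Acss2, the acetate enzyme, stood at 22.6, 35.7 and 77.4 CPM in eWAT against 420.1, 568.3 and 937 CPM, and at 19.8, 43.6 and 87.1 CPM in iWAT against 234, 639 and 1007 CPM. It did not overlap with lean mice and fell by 3.81 ± 0.50 and 3.77 ± 0.44 (adjusted p = 1.06e-06 and 3.17e-07). Acly fell by 3.42 ± 0.49 in eWAT and by 3.64 ± 0.46 in iWAT (adjusted p = 3.19e-06 and 8.19e-07). Me1 fell by 2.86 ± 0.41 and 3.16 ± 0.41 (adjusted p = 3.21e-06 and 9.75e-07), without overlap in either depot. Slc25a1 fell by 2.08 ± 0.35 in eWAT and by 2.46 ± 0.37 in iWAT (adjusted p = 2.33e-05 and 1.08e-05). Acaca fell by 2.67 ± 0.44 in eWAT and by 2.61 ± 0.40 in iWAT (adjusted p = 1.67e-05 and 1.47e-05).

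Acacb had the smallest difference of the 10 at this time, -1.08 ± 0.34 in eWAT (adjusted p = 0.0108) and -1.77 ± 0.35 in iWAT (adjusted p = 4.68e-04). Its eWAT values of 80.8, 153 and 351 CPM ran into the lean values of 250, 388 and 539 CPM, and its iWAT values of 106, 177.3 and 337 CPM into the lean values of 234, 693 and 1193 CPM. Scd1 fell by 1.79 ± 0.37 and 2.16 ± 0.27 (adjusted p = 2.02e-04 and 5.87e-07). Scd2 stood at 202, 288 and 358 CPM in eWAT against 2060, 2513 and 3337 CPM, and at 159, 183 and 313 CPM in iWAT against 1401, 2012 and 2113 CPM. The Scd2 groups were far apart in both depots, and the differences were -3.25 ± 0.41 (adjusted p = 7.79e-07) and -3.13 ± 0.38 (adjusted p = 5.01e-07). All 2-week mice lay below all lean mice for 9 members in eWAT (5.65% of genes), Acacb being the exception, and for 7 in iWAT (2.53% of genes), the exceptions being Slc25a1, Acaca and Acacb.

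**Figure D2:**
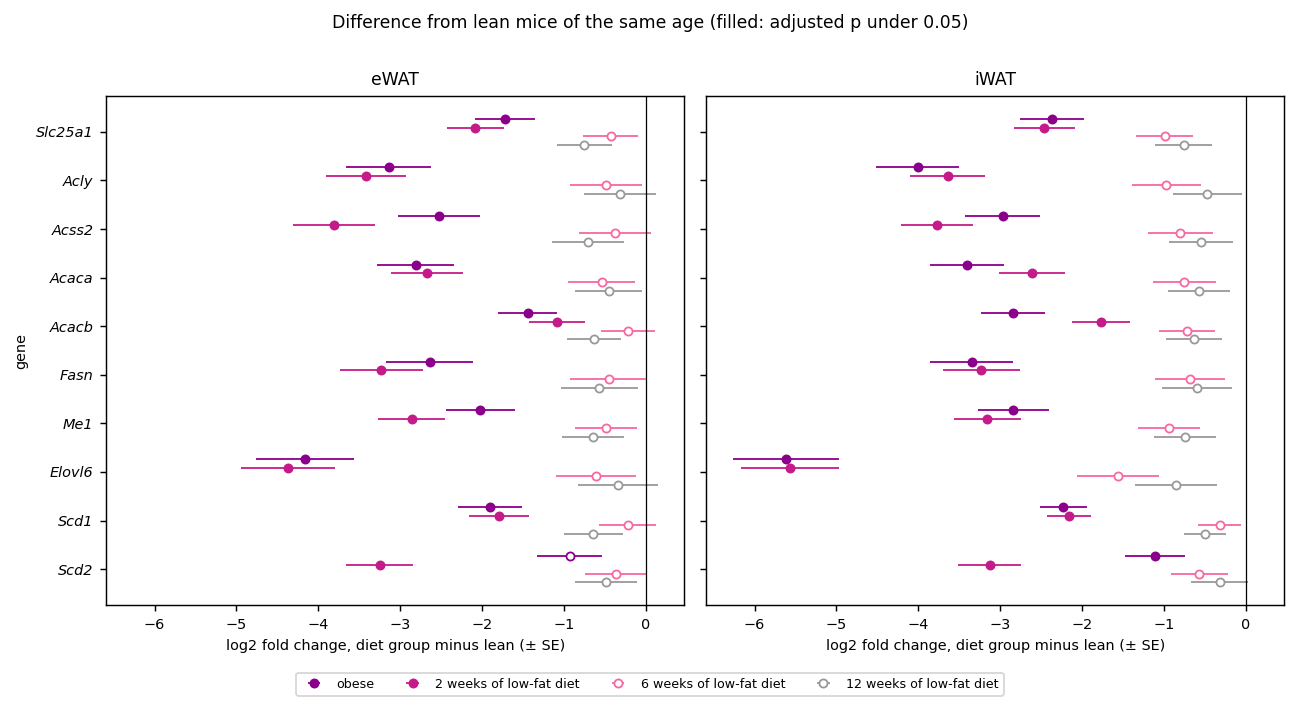
Log2 difference of diet mice minus lean mice of the same age for each member at the 4 times, in eWAT and iWAT; bars are standard errors and filled points have an adjusted p under 0.05. Differences for Elovl6 reach -5.62 in iWAT, Scd2 moves from -0.93 to -3.25 in eWAT between obesity and 2 weeks, and no point at 6 or 12 weeks is filled.

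Scd2 was the only member whose difference from lean mice changed between obesity and 2 weeks, and it went further down. The change in its log2 difference was -2.32 ± 0.55 in eWAT (adjusted p = 0.00803, where 3.74% of genes changed downward) and -2.01 ± 0.51 in iWAT (adjusted p = 0.0175, 2.12%). The call was kept when each library of the 4 groups was left out in turn. In iWAT it was lost when neighbouring mouse numbers were treated as a random block, an alternative chosen after seeing the data (-1.91, adjusted p = 0.0987). For the other 9 members the test of this change did not pass, which does not show that they stayed the same.

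Isoenzymes were also compared within each library, as the log2 ratio of Acaca to Acacb and of Scd1 to Scd2, with an exact two-sided permutation test over mice for each of 16 comparisons and Benjamini-Hochberg adjustment over the 16. At 2 weeks the Acaca to Acacb log2 ratio was 0.53 ± 0.67 in eWAT against 2.24 ± 0.22 in lean mice (SD, n = 6 each), a difference of -1.72 (exact permutation p = 0.00216, adjusted p = 0.0173). In iWAT it was 0.71 ± 0.63 against 1.73 ± 0.14, a difference of -1.02 (exact permutation p = 0.00216, adjusted p = 0.0173). Every 2-week library was below every lean library in both depots, so Acaca had fallen by more than Acacb relative to lean mice. In obese mice the same ratio was lower by -1.48 in eWAT and -0.74 in iWAT, and neither passed (adjusted p = 0.0519 and 0.0750). The Scd1 to Scd2 log2 ratio differed by -1.04 in obese eWAT and by 1.18 at 2 weeks, and by -1.01 and 0.98 in iWAT, and none of these passed (adjusted p = 0.215, 0.0750, 0.156 and 0.0519). At 6 and 12 weeks neither ratio passed in either depot.

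**Figure D3:**
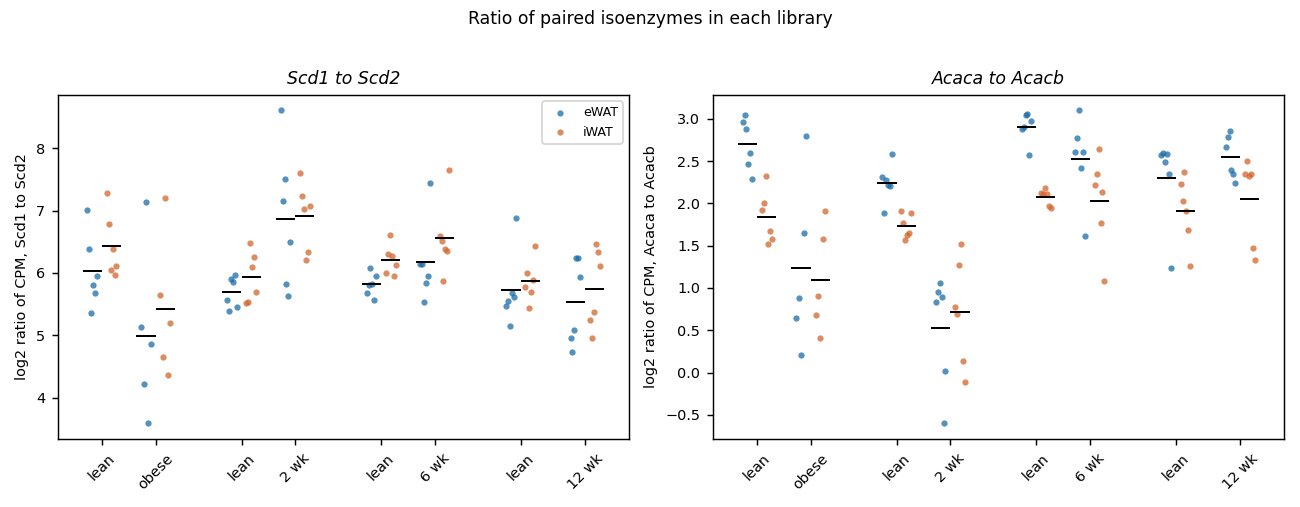
Log2 ratio of Scd1 to Scd2 and of Acaca to Acacb in each library, by group and depot; points are libraries and bars are group means. The 2-week regression libraries of the Acaca to Acacb panels lie below all lean libraries of their age, with means of 0.53 against 2.24 in eWAT and 0.71 against 1.73 in iWAT.

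At 6 weeks on the low-fat diet no member was called in either depot (2.02% of genes were called lower in eWAT and 0.482% in iWAT), although all 10 log2 differences were negative in both. In eWAT that direction turned with the macrophage signal as a term, when all 10 lay between 0.22 and 0.88 and none was called, and with the adipocyte signal as a term Acacb (0.02) and Scd1 (0.10) turned. Without these terms they ran in eWAT from -0.61 (Elovl6) to -0.22 with a median of -0.44, and in iWAT from -1.56 (Elovl6 ± 0.50, adjusted p = 0.0991) to -0.32 with a median of -0.77. Elovl6 in iWAT stood at 202, 983 and 2291 CPM against 1903, 3350 and 4657 CPM in lean mice, and 5 of the 6 regression mice were below the lean range. Replicate 6 of the 6-week regression group was the lowest of its group for all 10 members in eWAT, with Acly at 159 CPM beside a group median of 1568 and Acss2 at 47.1 beside 492.9 CPM. In iWAT the same mouse was the lowest for 9 members, the exception being Acacb, with Acly at 246 CPM beside a median of 1713. No member was called at 6 or 12 weeks when any single library was left out.

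At 12 weeks the differences were again negative for all 10 members in both depots and none was called (4.51% of genes were called lower in eWAT and 0.00719% in iWAT). In eWAT the direction turned again with the macrophage signal as a term, when all 10 lay between 0.20 and 1.03 and none was called, and Acaca (0.07) turned with the adipocyte signal. Without these terms the differences ran from -0.75 (Slc25a1, adjusted p = 0.121) to -0.31 in eWAT, with a median of -0.60, and from -0.85 to -0.32 in iWAT, with a median of -0.59. Fasn, as an example, stood at 5301, 12637 and 21391 CPM in eWAT against 6063, 17117 and 35160 CPM in lean mice. The ranges of the groups overlapped for all 10 members at 6 and at 12 weeks in both depots (1.01% and 0.726% of genes did not overlap downward in eWAT, 1.09% and 0.237% in iWAT). The members took 10.4% ± 3.59 of eWAT counts at 12 weeks against 14.9% ± 4.24 in lean mice, and 13.0% ± 3.81 of iWAT counts against 17.3% ± 3.49. The standard errors of the log2 differences lay between 0.33 and 0.49 in eWAT, and differences of the size seen did not pass the test, which does not show that the groups were alike. DESeq2 likewise called no member at 6 or 12 weeks in either depot.

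The return itself was tested as the change in the difference from lean mice. Between 2 and 6 weeks 6 members rose towards lean levels in eWAT, against 0.593% of all genes that changed upward: Elovl6 (3.76), Acss2 (3.43), Acly (2.93), Scd2 (2.89), Fasn (2.79) and Me1 (2.37), with adjusted p between 0.00778 and 0.0318. In iWAT 5 members rose, against 0.101% of genes: Elovl6 (4.01), Acss2 (2.97), Acly (2.67), Scd2 (2.55) and Scd1 (1.85), with adjusted p between 0.0164 and 0.0460. These counts rested on few mice, and the share of all genes called with a library left out is not given here. The eWAT count was 3 without replicate 4 of the 6-week regression group. The iWAT count was 1 without lean 6-week replicate 2 or regression 6-week replicate 4, 2 without lean 2-week replicate 5, 3 without lean 6-week replicate 6 or regression 2-week replicate 1, and 8 without regression 2-week replicate 3. With neighbouring mouse numbers as a random block both counts were 0, where 7 genes of all those tested changed upward in eWAT and none in iWAT. From obesity to 12 weeks the difference from lean mice rose for 3 members in eWAT (0.726% of genes), namely Elovl6 (3.82), Acly (2.82) and Acaca (2.36), and for 8 in iWAT (2.35% of genes), where Elovl6 (4.77) and Acly (3.54) changed most and Slc25a1 (1.61, adjusted p = 0.0570) and Scd2 (0.80) were not called. The random block left the eWAT count at 3 and took the iWAT count to 5 (0.561% of genes).

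Ranked by group mean, the 2-week regression group was the lowest of the 8 groups for 8 members in each depot and the obese group for the other 2. The regression groups at 6 and 12 weeks took the next places in eWAT for all 10 members, below all 4 lean groups. The lean group at 28 weeks was the highest for 6 members in each depot. Few neighbours in this order were separated by their mean ± SD ranges: the lowest place from the next for 1 member per depot, the second place from the third for 4 members in eWAT and 7 in iWAT, and no member at the higher places.

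Elovl6 and Acacb were lower in obese than in lean mice by more in iWAT than in eWAT. The difference between depots, iWAT minus eWAT of the obese minus lean values with the mouse as a block, was -1.62 ± 0.31 for Elovl6 and -1.31 ± 0.25 for Acacb (adjusted p = 0.00282 for each, with 0.671% of genes changed in that direction). Both genes were higher in lean iWAT than in lean eWAT, and the obese means of Acacb were 112 ± 60.5 CPM in iWAT and 117 ± 76.0 CPM in eWAT (SD, n = 5). All 10 members had a negative depot difference in obesity, with a median of -0.68, and 8 of them were not called. Both calls were kept when each of the 5 obese mice was left out in turn, and both were lost without the mouse block (adjusted p = 0.652 and 0.355). At 2 weeks only Elovl6 differed between depots (-1.24 ± 0.30, adjusted p = 0.00853, 3.86% of genes), and at 6 weeks (-0.98, adjusted p = 0.0906) and 12 weeks no member was called (0.285% and 0.0339% of genes).

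A mouse that was high for a member in one fat pad tended to be high in the other. With the group mean removed, the log2 CPM of the same mouse in eWAT and iWAT correlated with Pearson r of 0.62 to 0.80 over the 24 lean mice (Spearman rho 0.55 to 0.80) and of 0.81 to 0.93 over the 23 obese and regression mice (rho 0.73 to 0.90), by members. Permutation within groups gave an adjusted p under 0.05 for all 20 relations computed. For Elovl6 r was 0.79 in lean mice (permutation p = 5.00e-05, adjusted p = 1.00e-04) and 0.88 in diet mice (permutation p = 2.00e-05, adjusted p = 6.67e-05), and for Scd1 it was 0.62 (permutation p = 0.00242, adjusted p = 0.00242) and 0.84 (permutation p = 1e-05, the smallest that the permutations can give, adjusted p = 5.00e-05). Without the 2 mice farthest from the median in eWAT, r was 0.55 to 0.72 and 0.70 to 0.86. Over all 13564 genes the median r was 0.21 in lean and 0.27 in diet mice, and 6.27% and 0.914% of genes reached the r of the lowest member. Taken from the mean of neighbouring mouse numbers rather than of the group, r was 0.48 to 0.77 and 0.79 to 0.92. Obese replicate 5 and 6-week regression replicate 6, which stood apart for several members, did so in both depots.

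**Figure D4:**
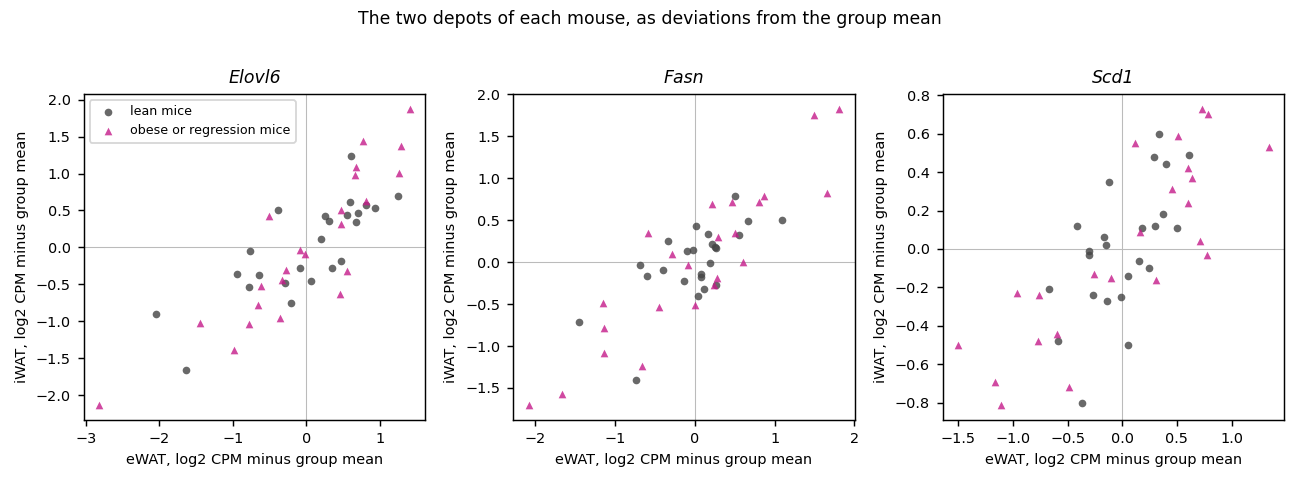
Deviation from the group mean (log2 CPM) in eWAT on the x axis and iWAT on the y axis for Elovl6, Fasn and Scd1; each point is a mouse, with lean mice and obese or regression mice marked apart. For Elovl6 the Pearson r is 0.79 over 24 lean mice and 0.88 over 23 diet mice.

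Many genes of the steps around the pathway were also lower in obesity and at 2 weeks, to an extent that differed between lists. A few were higher, and most were not called later. Among 15 genes of carbon and NADPH supply, 11 fell in obese eWAT and 14 at 2 weeks, and 12 and 13 fell in iWAT. The shares of all genes called lower in these 4 comparisons, against which this and the next lists are read, were 9.31% and 17.1% in eWAT and 15.5% and 9.37% in iWAT. In iWAT Me2, a mitochondrial malic enzyme, was higher in obesity (0.64). The transketolase Tkt of the pentose phosphate pathway fell by 2.52 ± 0.39 in obese eWAT and by 2.97 ± 0.41 in obese iWAT, and the mitochondrial pyruvate carrier subunit Mpc1 fell by 2.06 ± 0.30 and 2.07 ± 0.32. At 2 weeks Tkt fell by 1.92 ± 0.35 and 2.08 ± 0.37, the NADPH-yielding dehydrogenase Pgd fell by 1.71 ± 0.23 in eWAT, and the pyruvate dehydrogenase subunit Pdhb fell by 1.78 ± 0.27 in iWAT. Of the 4 genes of sugar entry, all 4 fell in obesity and 3 at 2 weeks in both depots. The fructose transporter gene Slc2a5 was at 0.342 CPM in obese iWAT against 63.0 CPM in lean iWAT (a log2 difference of -7.58 ± 0.82) and at 0.913 against 10.4 CPM in eWAT (-3.49 ± 0.65), and at 2 weeks it was lower by -5.07 in iWAT and by -2.72 in eWAT. The insulin-responsive glucose transporter gene Slc2a4 fell by 1.19 ± 0.25 in obese eWAT, 1.44 ± 0.23 in obese iWAT and 1.18 ± 0.24 in eWAT at 2 weeks, and the hexokinase gene Hk2 fell by 1.08 ± 0.28 in iWAT at 2 weeks.

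Among 12 further genes of elongation and desaturation, 4 and 6 fell in eWAT in obesity and at 2 weeks, and 7 and 9 in iWAT, where Elovl1 was higher in obesity (0.34). The delta-5 desaturase Fads1 (-1.0 ± 0.19) and the trans-enoyl-CoA reductase Tecr (-0.99 ± 0.22) had the largest called differences of this list in obese eWAT. Elovl3, an elongase that is also a marker of thermogenic fat, was at 0.616 CPM in obese iWAT against 15.2 CPM (a log2 difference of -4.56 ± 0.79) and at 0.0570 against 10.6 CPM at 2 weeks (-7.31 ± 0.98), and in eWAT at 2 weeks its difference was -2.96 ± 0.88. Scd3, a further desaturase, fell by 2.06 in obese iWAT, by 2.19 in iWAT at 2 weeks and by 1.71 in eWAT at 2 weeks. Of the 5 pathway lists this was the only one with calls at 6 weeks, in eWAT for Fads2 (-1.66), Fads1 (-0.98) and Hacd2 (-0.64) and in iWAT for Tecr (-0.83). At 12 weeks in eWAT it kept Fads1 (-0.60) and Hacd2 (-0.59), and the sugar-entry gene Khk was called at -0.70. Thermogenic markers moved in the same direction in iWAT. Of a list of 8, 7 fell in obesity and 5 at 2 weeks, with a summed level of 59.1 to 156 CPM in obese mice against 247 to 648 CPM in lean mice and of 23.7 to 93.1 against 114 to 619 CPM at 2 weeks, and none of the 8 was at 0. Their part in the iWAT results was not tested.

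Of 6 other acyl-CoA and malonyl-CoA enzymes, 3 fell in obese eWAT, 4 in eWAT at 2 weeks, 6 in obese iWAT and 5 in iWAT at 2 weeks. The acetoacetyl-CoA synthetase Aacs fell by 1.17 ± 0.33 and 1.80 ± 0.32 in eWAT and by 1.58 ± 0.32 and 1.44 ± 0.30 in iWAT. Acss1, the mitochondrial counterpart of Acss2, fell in iWAT by 0.84 ± 0.16 and 0.74 ± 0.15 but rose in eWAT at 2 weeks by 0.32 ± 0.13. Acss3 fell in obese eWAT by 0.89 and the malonyl transferase Mcat fell in eWAT at 2 weeks by 0.83. Of 8 regulators, 3 and 6 fell in eWAT and 6 and 5 in iWAT, where Nr1h3 was higher at 2 weeks (0.33). Thrsp, a lipogenic cofactor induced by carbohydrate, changed by -1.71 ± 0.45 and -2.63 ± 0.43 in eWAT and by -2.69 ± 0.44 and -2.78 ± 0.41 in iWAT, in obesity and at 2 weeks. Mlxipl, which encodes ChREBP, fell in obesity by 1.07 ± 0.26 in eWAT and by 1.77 ± 0.27 in iWAT. Srebf1 was also in this list, and its values and those of Mlxipl at 2 weeks are not given here. Insig1, a sterol-regulated retention protein of the SREBP system, was not called in obese eWAT (-0.39) and fell at 2 weeks by 2.44 ± 0.41 in eWAT and 2.41 ± 0.36 in iWAT.

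Over the 16 group means of both depots, centred by depot, the genes outside the list whose log2 CPM was most like the mean of the members were Parm1 (r = 0.995), Sorl1 (0.994), Thrsp (0.992), Gbe1 (0.991) and Pdhb (0.991), of 10821 genes with at least 5 CPM in both depots. Among the members Fasn (0.996) and Acly (0.994) followed the mean most closely, and Acacb (0.892) and Scd2 (0.886) least. Each member is itself part of that mean, so its r is not comparable with that of a gene outside the list. The group means share the same libraries and scaling, and the r values are a description.

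Markers of other cells also differed between diet and lean mice. All 8 macrophage markers were higher in eWAT of diet mice at all 4 times and in iWAT in obesity. Their summed level in eWAT was 426.78 to 583 CPM in lean and 715 to 3513 CPM in obese mice, and 441.33 to 651 CPM and 1011 to 3262 CPM at 2 weeks. It was 425.53 to 642 CPM against 691 to 3726.9 CPM at 6 weeks and 348 to 852 CPM against 628 to 3906 CPM at 12 weeks. In iWAT the ranges were 377 to 1029 CPM against 896 to 3071 CPM in obesity. At 2 weeks they were 971 to 2311 CPM against 1582 to 3636 CPM, and none of the 8 was called. Of 8 adipocyte markers 3 were lower in obese eWAT (9.31% of genes called lower), 4 in eWAT at 2 weeks (17.1%) and 5 in obese iWAT (15.5%). In iWAT at 2 weeks none of the 8 was lower (9.37%) and 1 was higher. Their summed level was 15341 to 28474 CPM in lean and 8299 to 21602 CPM in obese eWAT, 17190 to 26372 CPM against 9799 to 25581 CPM in eWAT at 2 weeks, 18627 to 23833 CPM against 12691 to 16956 CPM in obese iWAT, and 9414 to 20299 CPM against 10334 to 23146 CPM in iWAT at 2 weeks. Of 6 progenitor and fibroblast markers 4 were higher in obese eWAT, 4 in eWAT at 2 weeks, 5 in obese iWAT and none in iWAT at 2 weeks. Their summed level was 1256 to 1588 CPM in lean and 1447 to 2534 CPM in obese eWAT, 1303 to 1820 CPM against 1878 to 3357 CPM in eWAT at 2 weeks, 1678 to 3533 CPM against 3782 to 6783 CPM in obese iWAT, and 3098 to 7736 CPM against 3580 to 14091 CPM in iWAT at 2 weeks. Their part in the results was not tested, and the share of all genes called higher in these comparisons is not given here. No marker of these 3 lists was at 0.

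The summed macrophage level did not overlap between diet and lean eWAT in obesity, at 2 weeks and at 6 weeks, so there the macrophage signal and the diet cannot be fully told apart. The members called in eWAT with the macrophage signal as a term were Elovl6 (-3.13), Acly (-2.10) and Acaca (-1.81) in obesity and Elovl6 (-2.88), Scd2 (-2.28) and Acss2 (-2.23) at 2 weeks. With the adipocyte signal as a term, 6 and 9 members were called in eWAT in obesity and at 2 weeks (1.72% and 7.06% of genes called lower) and 9 and 10 in iWAT (7.40% and 10.7%), and 5 were called lower in iWAT at 6 weeks (Elovl6, Slc25a1, Me1, Acaca and Acacb, where 4.56% of genes were). The mouse numbers of the labels fall into 2 separate series, replicates 1 to 3 and the later replicates of each group, of which the obese group has 2 and the others 3. When each series was fitted apart, 3 members were called in obese eWAT from the 2 mice of the second series (3.50% of genes called lower) and 8 from replicates 1 to 3 (1.87%), with all 10 differences negative in each and medians of -2.09 and -2.39. At 2 weeks the medians in eWAT were -3.85 in replicates 4 to 6 and -2.36 in replicates 1 to 3, and in iWAT -3.65 and -2.61.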

How the data were processed

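Poly(A) RNA of eWAT and iWAT from 47 male mice was sequenced in 94 libraries, grouped by the labels into 8 groups per depot. The authors deposited raw counts, 1 column per library; per the submitters' processing notes reads were aligned with STAR 2.4.1c to mm10, and no source at hand names the counting program, annotation or strand setting. The authors' deposited DESeq2 1.38.3 tables (R 4.2.2) hold log2 fold changes with standard errors, Wald statistics (a score), unadjusted and adjusted p-values and a mean of normalized counts (a signal), and were used only where named. Gene models are GENCODE M21 on mm10 and promoters RefSeq on GRCm38.p6.

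Counts were tested per depot with edgeR 4.0.16 in R 4.3.3 (TMM, filterByExpr, 8 group means over 47 libraries, quasi-likelihood F-test), adjusted over all genes, and both depots in 1 fit with the mouse as a block, since mouse numbers in the labels pair the depots. A standard error is the log2 difference divided by the square root of its F statistic. The log2 CPM for ratios and correlations used a prior count of 2. Replicates of a group always differed by more than sampling noise (chi-square per degree of freedom at least 3.63). The fit was also run on simulated eWAT counts with 200 changed genes, independent mice and the same dispersion for every gene. That setting is simpler than these data, so its outcome is not used as support. Members always are named; of each pathway list, the 2 called genes with the largest differences per depot in obesity and at 2 weeks, with others named beside small counts after their values were seen. The members and lists were chosen with earlier results of these data known. Alternatives were DESeq2 1.42.0, its size factors, no count filter, a prior count of 0.5, terms for cell content, mouse series, replicate number and other tissue, the groups alone, each library left out, and, added after seeing the data, neighbouring mouse numbers as a random block (limma 3.58.1). Total counts per library are given as ranges with the results, and no column was left out.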

Additional observations from a re-analysis of the deposited data

Results flagged for a closer look

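Of 160 groups of libraries (10 members, 8 groups, 2 depots), 12 held a value far from the rest of its group by Dixon's test, which chance alone gives for about 1 in 20 groups. In 8 of the 12 the value was the high one of obese replicate 5: in eWAT Fasn at 9237 CPM (nearest 3197), Acaca at 745 (nearest 259), Acly at 685 (nearest 234) and Elovl6 at 155 CPM (nearest 57.4), and in iWAT Fasn at 8224 (nearest 2473), Acaca at 721 (nearest 202), Acly at 520 (nearest 148) and Elovl6 at 202 CPM (nearest 51.6). In iWAT, replicate 6 of the 6-week regression group was low for Acly at 246 CPM (nearest 1625) and for Scd2 at 309 CPM (nearest 1131). Lean replicate 4 at 28 weeks of age was high for Acacb in iWAT at 1233 CPM (nearest 764). Lean replicate 1 at 34 weeks of age was high for Scd2 in eWAT at 3005 CPM (nearest 2166).

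The difference from lean mice itself differed between times, by the test of that change. From obesity to 2 weeks this held for Scd2, by -2.32 in eWAT and -2.01 in iWAT. From 2 to 6 weeks in eWAT it held for Elovl6 (3.76), Acss2 (3.43), Acly (2.93), Scd2 (2.89), Fasn (2.79) and Me1 (2.37), and in iWAT for Elovl6 (4.01), Acss2 (2.97), Acly (2.67), Scd2 (2.55) and Scd1 (1.85). From obesity to 12 weeks in eWAT it held for Elovl6 (3.82), Acly (2.82) and Acaca (2.36). In iWAT over the same interval it held for Elovl6 (4.77), Acly (3.54), Acaca (2.83), Fasn (2.75), Acss2 (2.41), Acacb (2.21), Me1 (2.10) and Scd1 (1.73).

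The effect of diet also differed between the depots of the same mice for Elovl6 in obesity (-1.62), Acacb in obesity (-1.31) and Elovl6 at 2 weeks (-1.24), as iWAT minus eWAT.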

How the results depend on the processing

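The counts of members called in obesity and at 2 weeks changed by more than 1.5 times under few settings: in eWAT they were 3 and 3 with the macrophage signal as a term, and 3 in obesity within replicates 4 to 6, where the obese group has 2 mice. At 6 weeks in iWAT 5 were called with the adipocyte signal as a term. The tests of change were less stable. In eWAT from 2 to 6 weeks the count was 0 with neighbouring mouse numbers as a random block and 3 to 9 with each library left out. From obesity to 12 weeks it was 7 with the macrophage term, where 1.80% of genes changed upward. In iWAT from 2 to 6 weeks the count was 8 with DESeq2 and 8 with the adipocyte term (0.353% of genes changed upward). It was 3 without the count filter, 0 with the random block and 1 to 8 with each library left out. With the random block the iWAT count was 0 from obesity to 2 weeks, where 0.604% of genes changed downward. From obesity to 12 weeks it was 5, where 0.561% changed upward. Without the mouse block (no replicate block) the depot differences in obesity and at 2 weeks gave 0 members each. For DESeq2, no count filter, a library left out and no mouse block, the share of all genes called is not given here. Changes in those counts therefore cannot be set against all genes.

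With the replicate number of the labels as a block the counts at the 4 times were 9, 10, 0 and 0 in eWAT and 10, 10, 0 and 0 in iWAT. For the change from 2 to 6 weeks they were 8 and 7, and the share of all genes called with this block is not given here. Same-numbered mice did not deviate together (correlations from -0.60 to 0.56 in eWAT and from -0.58 to 0.63 in iWAT, with 3 and 4 of 23 libraries correlating best with their own number), so the numbers pair no mice across groups.

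Signs turned, without passing the test, with the macrophage term in eWAT: Acacb at 2 weeks (0.24); at 6 weeks Slc25a1 (0.35), Acly (0.59), Acss2 (0.65), Acaca (0.69), Acacb (0.76), Fasn (0.73), Me1 (0.42), Elovl6 (0.44), Scd1 (0.88) and Scd2 (0.22); at 12 weeks Slc25a1 (0.20), Acly (1.00), Acss2 (0.59), Acaca (1.03), Acacb (0.43), Fasn (0.91), Me1 (0.48), Elovl6 (0.89), Scd1 (0.62) and Scd2 (0.27). With the adipocyte term they turned in eWAT for Acacb (0.02) and Scd1 (0.10) at 6 weeks and Acaca (0.07) at 12 weeks. Isoenzyme ratio differences turned, with each library left out, for Scd1 to Scd2 at 12 weeks (-0.33 to 0.04 in eWAT, -0.27 to 0.04 in iWAT) and Acaca to Acacb in iWAT at 6 weeks (-0.16 to 0.15). The cause of these shifts was not tested. Of the other single values, 1631 with a library left out and 1179 under other settings kept their direction and side of the threshold, while 59 and 59 lost the call and 7 and 5 gained it. Leaving out mice in the fit of both depots was run for the 5 obese mice and not for the others.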
